A study of Mus musculus with 21 samples.

Results

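The 38 genes described here are 18 ligands (Wnt genes), 12 receptors (10 Frizzled genes, Lrp5 and Lrp6) and 8 nuclear effectors and feedback genes (Axin2, Lef1, Tcf7, Tcf7l1, Tcf7l2, Ctnnb1, Dkk1 and Sp5). A region was counted to a gene when the deposited table names that gene as its nearest and places it within 50 kb of the start site. This gave 358 of the 186826 regions in the table, 142 at ligands, 111 at receptors and 105 at effectors, with all 38 genes represented by between 1 region (Wnt10b) and 33 (Tcf7l2). Without the distance limit the same genes are nearest to 564 regions. At the limit, regions 49804 bp from the Wnt2 start and 49680 bp from the Wnt11 start were just inside, with wild-type differences in H3K4me1 level (formative minus naive, on the log2 scale) of 1.95 and −0.39, and regions 50010 bp from Lrp6 and 50242 bp from Fzd10 were just outside, with 0.30 and −0.90. The nearest gene need not be the gene that a distal region acts on.

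WNT proteins are secreted signals that bind Frizzled receptors and LRP co-receptors on the cell surface. In the canonical branch of the pathway, receptor binding stops the destruction complex from degrading beta-catenin, which then enters the nucleus and works through the TCF/LEF DNA-binding factors. In mouse embryonic stem cells an inhibitor of GSK3, 1 of the kinases of the destruction complex, is part of the 2i medium that holds cells in the naive state.

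The study profiled H3K4me1, a histone mark of enhancers and of the flanks of promoters, by CUT&RUN, in which an antibody-bound nuclease releases the marked chromatin for sequencing. MLL3 and MLL4 (Kmt2c and Kmt2d) are the main methyltransferases that place this mark at enhancers. Of its 21 samples, 16 are H3K4me1 libraries, 2 for each of 8 groups, and 1 IgG library and 4 MLL4 libraries are not used here. The 4 genotypes were wild type (WT), MLL3 knockout with floxed MLL4 (MLL3KO_MLL4fl, called the floxed line), the double knockout MLL3KO_MLL4KO (DKO), and the line labelled MLL3CD_MLL4CD (dCD), whose abbreviation the labels do not spell out. Each was sampled as naive cells and as formative cells taken 63 h after LIF and 2i were withdrawn. The floxed line and DKO thus both lack MLL3, and DKO was compared with the floxed line and dCD with wild type. Wild type and dCD carry the cell line label R1 and the floxed line and DKO carry none, so between floxed and wild type a genotype effect cannot be told apart from the line of origin. The labels give 2 catalogue numbers for the H3K4me1 antibody, of which the one in the protocol belongs to an H3K27ac antibody, and the mark is named here as labelled.

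Each group has 1 deposited column of log2 levels that pools its 2 libraries, so no spread between replicates can be given for any level below. Differences are between deposited log2 levels within 1 region. Read numbers are normalized reads worked back from the levels, and small ones carry counting error that the pooled columns do not show. The only test is the authors' deposited FDR for formative against naive wild-type cells, at 0.05. A region that passed it is said to have gained or lost the mark, and every other difference is a size without a test. In wild type, 6 of 8 naive-state marker loci had a mean difference past 1.5-fold toward naive cells, beside 15.1% of all loci. Esrrb (0.0043) and Tbx3 (0.20) did not. Toward formative cells 4 of 8 formative-state loci were past that size, beside 12.8% of all loci. The formative-state loci Otx2 (0.014), Dnmt3b (0.070), Dnmt3a (0.25) and Fgf15 (0.38) fell short of it. Loci of fibroblast genes (5 of 6), of neural genes (3 of 3) and of primitive-streak genes (3 of 4) were also past 1.5-fold higher in formative wild-type cells, and their part in the results below was not tested.

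The regions of the WNT genes were wider than usual, with a median of 2614 bp against 1947 bp over all regions, and deeper, with a median of 56.1 against 38.9 normalized reads in wild type. Of the 358, 143 were in introns, 175 were intergenic and 19 lay within 1 kb of a start site. Their median GC content was 48.2% against 46.2%, and their median CpG density 1.40 against 1.17 per 100 bases.

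The central 300 bases of the most strongly gained region of each role are printed first, since these Wnt5a, Fzd1 and Axin2 regions carry the largest called wild-type gains. Sequences are from the plus strand of the RefSeq mouse build GRCm38.p6 (mm10), were chosen after the values were seen, and have CG dinucleotides in capitals.
Wnt5a, chr14:28471556-28471855, 33.8 kb upstream of the start, inside the Erc2 gene: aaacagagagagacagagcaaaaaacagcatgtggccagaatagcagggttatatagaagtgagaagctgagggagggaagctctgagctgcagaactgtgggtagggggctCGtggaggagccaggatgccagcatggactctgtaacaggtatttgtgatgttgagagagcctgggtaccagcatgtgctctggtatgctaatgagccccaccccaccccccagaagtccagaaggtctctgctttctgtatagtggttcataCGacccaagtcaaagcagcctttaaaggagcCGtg
Fzd1, chr5:4743113-4743412, 15.0 kb downstream of the start, outside annotated genes: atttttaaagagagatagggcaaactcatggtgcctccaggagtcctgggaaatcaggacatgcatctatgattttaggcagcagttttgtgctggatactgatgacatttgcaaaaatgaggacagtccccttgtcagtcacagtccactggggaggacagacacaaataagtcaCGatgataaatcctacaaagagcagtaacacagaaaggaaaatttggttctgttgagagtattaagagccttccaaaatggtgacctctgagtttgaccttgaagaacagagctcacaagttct
Axin2, chr11:108872968-108873267, 47.2 kb upstream of the start, outside annotated genes: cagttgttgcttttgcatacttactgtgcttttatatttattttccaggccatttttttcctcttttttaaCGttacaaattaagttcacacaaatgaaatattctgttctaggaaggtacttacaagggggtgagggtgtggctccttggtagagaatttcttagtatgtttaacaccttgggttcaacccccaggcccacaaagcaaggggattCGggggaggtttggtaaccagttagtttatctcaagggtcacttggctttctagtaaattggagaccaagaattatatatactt
These windows hold 3, 1 and 2 CG dinucleotides, and GC contents of 52%, 42.7% and 39%.

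The core sequence that TCF and LEF factors bind was searched as CTTTGAA and CTTTGAT on both strands, forms that differ only in the last letter. It was in the central 300 bases of 38 of the 358 member regions (10.6%) and of 12.1% of all regions. Among the 44 member regions that gained the mark it was in 3 windows (6.82%), against 14.0% of all gained regions. The windows at Fzd1 and Wnt5a that hold it are shown with the match in capitals.
Fzd1, chr5:4746707-4747006, 11.4 kb downstream of the start: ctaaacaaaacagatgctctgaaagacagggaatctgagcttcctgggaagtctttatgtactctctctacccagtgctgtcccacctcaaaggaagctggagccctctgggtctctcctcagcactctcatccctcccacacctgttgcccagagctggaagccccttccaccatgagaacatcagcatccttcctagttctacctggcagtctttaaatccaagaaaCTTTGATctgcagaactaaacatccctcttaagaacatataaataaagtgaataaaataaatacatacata
Wnt5a, chr14:28469447-28469746, 35.9 kb upstream of the start, inside Erc2: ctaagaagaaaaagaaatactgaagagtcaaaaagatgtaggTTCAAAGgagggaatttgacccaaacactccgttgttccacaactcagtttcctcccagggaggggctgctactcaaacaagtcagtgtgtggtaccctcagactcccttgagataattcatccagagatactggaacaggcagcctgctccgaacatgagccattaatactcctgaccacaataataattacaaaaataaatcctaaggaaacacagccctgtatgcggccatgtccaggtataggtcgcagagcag
The match begins at base 230 of the Fzd1 window and at base 43 of the Wnt5a window, counted from the first base printed. In promoters taken as 250 bases before to 50 after each RefSeq start, the table held 38 promoters of 29 of the member genes, and 4 of them had the core (Sp5, Wnt5b, Wnt11 and Dkk1), 10.5% against 8.65% of all 32851 promoters. None of these matches shows that a factor binds there.

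In wild-type cells the move from naive to formative added H3K4me1 around many ligand genes, added it around some receptors and removed it around others, and at the effectors split by gene. Ligand regions gained far more often than they lost, with the Wnt5a, Wnt2b, Wnt3, Wnt4 and Wnt2 loci among those that gained, while Fzd9, Fzd5, Tcf7l1 and Tcf7l2 regions lost. By the FDR in the authors' deposited table, 44 of 358 member regions gained the mark (12.3%) and 22 lost it (6.15%). Over all regions the shares were 9.82% gained and 10.5% lost, and over all regions within 50 kb of a start 7.48% and 11.0%. Split by role, 26 of 142 ligand regions gained and 7 lost, 11 of 111 receptor regions gained and 9 lost, and 7 of 105 effector regions gained and 6 lost. At least 1 region gained at 23 of the 38 genes and at least 1 lost at 12, with both at 4 genes and neither at 7. The like share over all genes was not taken, and the genes had from 1 to 33 regions, so these gene counts do not set the members apart. In levels past 2-fold, 26 member regions were higher (7.26%, all regions 11.1%) and 20 lower (5.59%, all regions 11.4%). Ligands held 15 of the higher ones (10.6% of ligand regions) and 5 of the lower ones (3.52%). By size the higher ligand share was thus near that of all regions, while regions within 50 kb of a start had 7.75% higher and 11.3% lower. The 44 gained regions thus rose by less than gained regions at large, with a median difference of 0.86 against 1.40.

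Wnt5a, a ligand best known for beta-catenin-independent signalling in tissue elongation, had the most gained regions of any ligand, 6 of 11. The region 33.8 kb upstream (chr14:28471013-28472399, in an intron of Erc2) held 12.9 normalized reads in naive and 58.1 in formative wild-type cells, 16.5 and 55.5 in the floxed line, 7.70 and 10.8 in DKO, and 14.1 and 18.0 in dCD. The wild-type difference was 2.14, with an FDR of 0.000101 in the authors' deposited table. Only the formative wild-type and floxed columns were high, and both formative mutant columns stayed near their naive level. The next region, 35.9 kb upstream, went from 25.3 to 73.6 reads in wild type and from 29.2 to 84.0 in the floxed line, against 23.6 and 22.9 in DKO and 21.8 and 15.5 in dCD. The widest gain at this gene was 18.8 kb downstream of the start (chr14:28525684-28534796), with 144.8 and 313.0 reads in wild type, 245.1 and 324.5 in the floxed line, 93.8 and 137.0 in DKO and 110.4 and 138.3 in dCD (FDR 8.04e-07 in the authors' deposited table). Here the floxed line was already high in naive cells, and the 4 mutant columns were the lowest.

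Wnt3, the ligand needed for the primitive streak, gained over a broad region 3.2 kb upstream (chr11:103762426-103779609). It held 417.1 reads in naive and 766.1 in formative wild-type cells, 506.1 and 952.0 in the floxed line, 497.0 and 616.5 in DKO, and 425.7 and 652.4 in dCD, and its FDR of 7.93e-07 in the authors' deposited table was the lowest of all member regions. Unlike at Wnt5a, the mutants also were higher in formative cells here, by 0.28 in DKO and 0.55 in dCD on the log2 scale against 0.79 in wild type. A second Wnt3 region, 22.1 kb downstream, went from 243.8 to 460.0 reads in wild type and from 265.6 to 286.5 in DKO.

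Wnt4, which acts in kidney and gonad development, gained 5.5 kb downstream of its start (chr4:137277802-137288466), from 172.7 to 390.7 reads in wild type and from 219.7 to 435.1 in the floxed line. The same region went from 230.8 to 276.8 reads in DKO and from 211.9 to 295.7 in dCD, with an FDR of 1.44e-06 in the authors' deposited table. Wnt2b gained at 3 regions, of which the one 21.5 kb downstream went from 31.8 to 85.3 reads in wild type and from 34.6 to 95.8 in the floxed line but held 28.8 and 28.7 in DKO and 27.8 and 29.3 in dCD. The mutants thus had more reads in formative cells at Wnt4 and about as many in both states at this Wnt2b region, which was named after its values were seen.

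The 3 ligand losses with the lowest FDR lay at Wnt3a, a canonical ligand of the streak and tail bud, and at Wnt5b. The Wnt3a region 11.9 kb downstream (chr11:59271911-59285782) fell from 444.2 to 258.3 reads in wild type (FDR 0.000409 in the authors' deposited table) and went from 512.9 to 309.1 in the floxed line, 265.6 to 228.9 in DKO and 205.7 to 261.3 in dCD. Naive DKO and dCD cells were thus near or below the level of formative wild-type cells. The Wnt5b regions 21.4 kb upstream and 29.8 kb downstream fell from 138.4 to 78.7 and from 76.6 to 30.0 reads in wild type (FDR 0.00189 and 0.00281 in the authors' deposited table). At the neighbouring gene pair of Wnt3a and Wnt9a, 16.1 kb apart, the directions differed: Wnt3a had no gained region, while Wnt9a gained at 2, 1.8 and 30.0 kb downstream of its start. The other close pairs, Wnt3 with Wnt9b, Wnt6 with Wnt10a and Wnt1 with Wnt10b, held gained and no lost regions.

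Among receptors, Fzd1 had the largest gain of any member region. The region 15.0 kb downstream of its start (chr5:4742507-4744019) held 8.52 and 39.8 reads in naive and formative wild-type cells, 11.4 and 64.2 in the floxed line, 16.0 and 14.2 in DKO, and 11.7 and 7.33 in dCD (wild-type difference 2.16, FDR 0.000876 in the authors' deposited table). The second gained Fzd1 region, 11.4 kb downstream, held 13.1 and 34.5 reads in wild type, 13.0 and 50.9 in the floxed line, 18.6 and 18.3 in DKO and 12.9 and 14.7 in dCD. Both regions had few reads in all 6 other columns. Fzd8 gained 11.5 kb upstream, from 26.8 to 70.6 reads in wild type (FDR 0.00389 in the authors' deposited table), and from 32.1 to 61.0 in the floxed line, against 24.8 and 19.6 in DKO and 29.4 and 25.6 in dCD. Fzd6, known for planar cell polarity, gained 13.3 kb downstream, from 45.4 to 96.8 reads in wild type (FDR 0.00513 in the authors' deposited table).

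The receptor losses were at Fzd10, Fzd9, Fzd5, Lrp5 and Lrp6. The region named for Fzd10, 11.8 kb downstream (chr5:128611306-128614607), fell from 102.8 to 34.6 reads in wild type, with an FDR of 9.12e-05 in the authors' deposited table. It held 103.1 and 52.1 in the floxed line, 36.8 and 33.9 in DKO and 34.8 and 29.0 in dCD, so that only the naive wild-type and floxed columns were high. At Fzd9 the region 27.6 kb downstream fell from 129.6 to 45.5 reads in wild type (FDR 0.000168 in the authors' deposited table), and held 122.7 and 50.6 in the floxed line, 72.4 and 65.4 in DKO and 75.2 and 54.5 in dCD. Fzd5 lost at 3 of 12 regions, led by the one 10.7 kb upstream, which fell from 78.4 to 31.2 reads in wild type (FDR 0.00452 in the authors' deposited table). The co-receptor genes Lrp5 and Lrp6 had 1 gained and 1 lost region each, of 13 and 20.

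**Figure D1:**
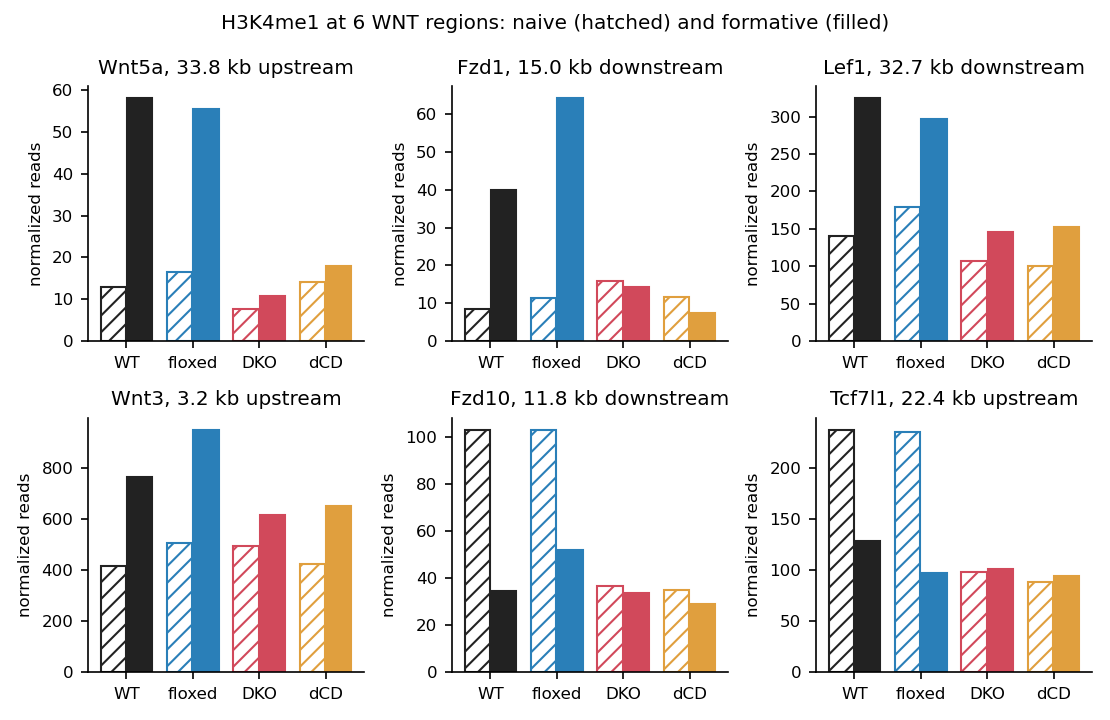
Normalized reads at 6 named regions in naive (hatched) and formative (filled) cells of the 4 genotypes, 1 bar per pooled column, with no error bars because the columns pool the libraries. At Wnt5a, Fzd1 and Lef1 the formative wild-type and floxed bars stand above the others, while at Fzd10 and Tcf7l1 the naive wild-type and floxed bars do.

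The effectors split by gene. Lef1, the TCF/LEF factor that is itself a target of the pathway, gained at 5 of 18 regions and lost at none, and Axin2 and Tcf7 gained at 1 each. The Lef1 region 32.7 kb downstream, within the gene (chr3:131141961-131148991), held 140.3 and 324.8 reads in naive and formative wild-type cells, 178.5 and 297.5 in the floxed line, 107.4 and 145.5 in DKO, and 100.4 and 151.7 in dCD (FDR 2.13e-06 in the authors' deposited table). The mutants were also higher in formative cells there, but from a lower start and to far fewer reads. The Lef1 regions 22.0 and 44.5 kb downstream rose from 45.9 to 109.0 and from 222.7 to 347.0 reads in wild type (FDR 0.00029 and 0.00399 in the authors' deposited table). Axin2, the negative feedback gene of the pathway, gained 47.2 kb upstream, with 16.0 and 40.8 reads in wild type, 19.5 and 34.5 in the floxed line, 17.8 and 14.1 in DKO and 18.6 and 17.1 in dCD (FDR 0.036 in the authors' deposited table).

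Tcf7l1, the repressive factor of the family, and Tcf7l2 lost at 3 regions each and gained at none. The Tcf7l1 region 22.4 kb upstream (chr6:72807663-72815209) fell from 237.8 to 128.7 reads in wild type (FDR 0.000351 in the authors' deposited table), and held 235.8 and 97.3 in the floxed line, 98.5 and 101.1 in DKO and 88.8 and 94.0 in dCD. The Tcf7l2 regions 28.3 and 31.9 kb upstream fell from 82.5 to 26.0 and from 87.3 to 34.0 reads (FDR 0.000598 and 0.00119 in the authors' deposited table). At Tcf7l2 the naive DKO columns were not at the formative wild-type level, with 74.1 and 120.7 reads at these regions. Ctnnb1, which encodes beta-catenin, Dkk1, a secreted LRP antagonist, and Sp5, a target gene of the pathway, had neither a gained nor a lost region.

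Averaged over all its regions, no member locus was past 1.5-fold lower in wild-type formative cells and 6 were past 1.5-fold higher. These were Fzd1 (1.31 on the log2 scale), Wnt2 (1.05), Wnt5a (0.92), Fzd8 (0.74), Wnt10b (0.66, from 1 region) and Wnt1 (0.59). Of all 21535 gene loci, 12.8% were past that size higher and 15.1% lower. The floxed line also had 6 member loci higher and none lower: Fzd1 (1.27), Wnt6 (1.11), Wnt2 (0.92), Wnt9b (0.66), Sp5 (0.65) and Fzd3 (0.63), beside 9.90% and 15.5% of all loci. The Wnt2 value there came from thin regions and was 0.25 over regions of at least 32 normalized reads, and the floxed Fzd1 value was 0.35 within 10 kb. In DKO and dCD no member locus was past 1.5-fold in either direction between naive and formative cells, with locus means from −0.31 to 0.26 in DKO and from −0.57 to 0.49 in dCD. Over all loci that size was also rare, at 1.57% higher and 1.03% lower in DKO and 2.60% and 1.93% in dCD. The 0 of 38 thus does not set the members apart. Within 10 kb of the start sites 1 member locus in DKO and 4 in dCD passed that size, and no share over all loci was taken there.

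**Figure D2:**
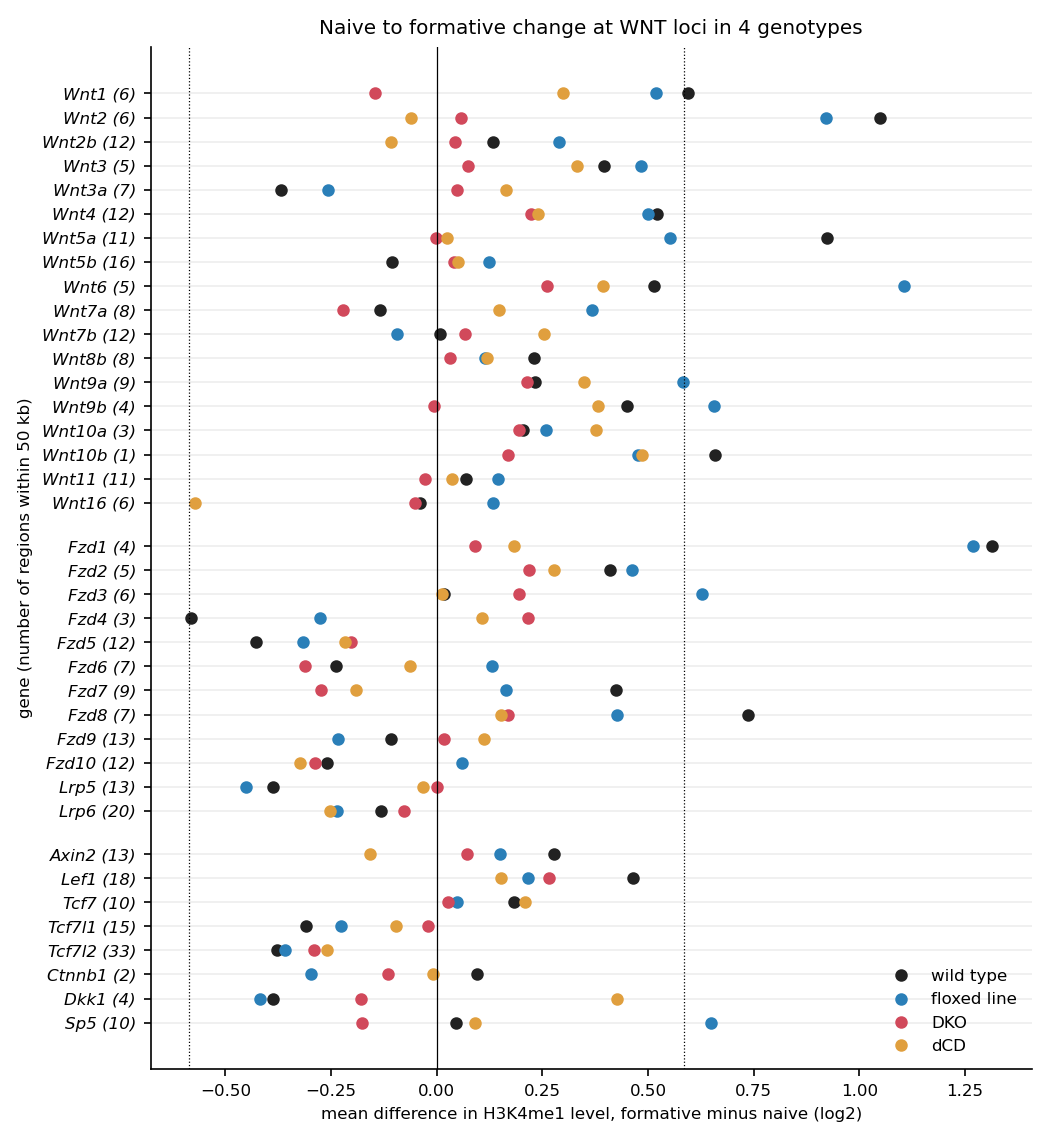
Mean difference in H3K4me1 level between formative and naive cells over the regions of each gene (log2, x axis), 1 point per genotype, with genes grouped as ligands, receptors and effectors and the number of regions in brackets. Dotted lines mark 1.5-fold, and the points of DKO and dCD all lie between them, while wild type reaches 1.31 at Fzd1. Of all loci, 1.57% were past that size higher and 1.03% lower in DKO, and 2.60% and 1.93% in dCD.

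The floxed, DKO and dCD libraries took no part in calling the 44 gained and 22 lost regions, so their own transitions could be read at them. At the gained regions the median difference was 0.86 in wild type, 0.73 in the floxed line, 0.22 in DKO and 0.35 in dCD. The difference was above 0 at 43 of 44 in the floxed line, 34 in DKO and 39 in dCD, and past 2-fold at 12, 0 and 0. Gained regions of the whole table had medians of 1.02, 0.15 and 0.26 in these genotypes, with 97.9%, 65.7% and 72.6% above 0 and 51.1%, 3.81% and 5.01% past 2-fold. At the lost regions the medians were −1.19, −0.76, −0.21 and −0.27, below 0 at 21 of 22 in the floxed line, 20 in DKO and 16 in dCD, and past 2-fold at 7, 0 and 0. Lost regions of the whole table had medians of −1.22 in wild type and −1.01, −0.15 and −0.33 in the other genotypes, with 98.0%, 69.0% and 82.6% below 0 and 50.4%, 1.89% and 5.92% past 2-fold. Most called member regions thus had the wild-type sign in the mutants at a smaller size, as called regions at large did, and the signs of these medians held under each scaling tried.

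**Figure D3:**
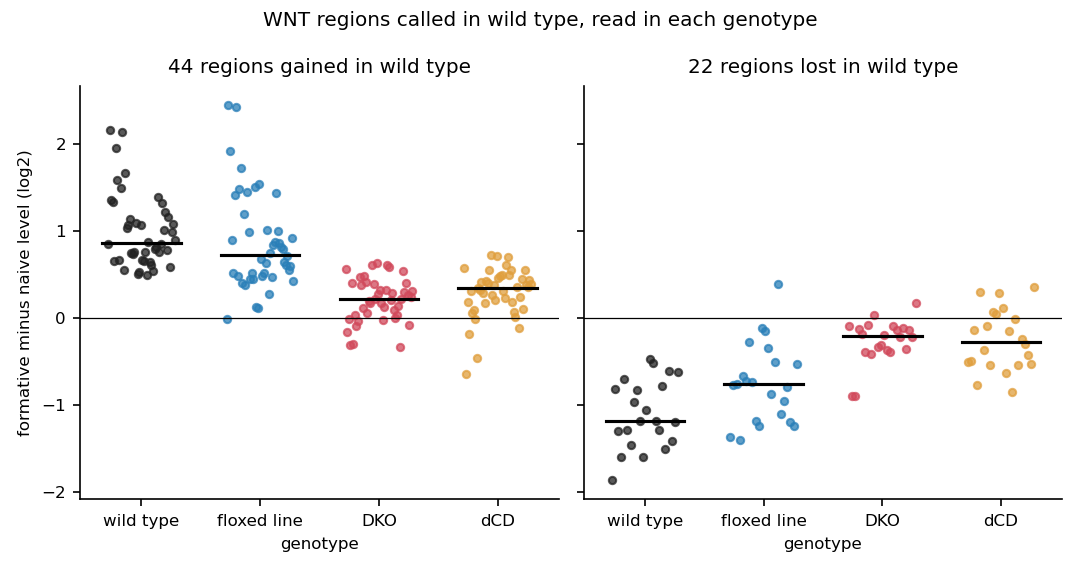
Difference in level between formative and naive cells (log2) at the 44 member regions that gained and the 22 that lost H3K4me1 in wild type, 1 point per region and genotype, with the median as a bar. The medians at gained regions go from 0.86 in wild type and 0.73 in the floxed line to 0.22 in DKO and 0.35 in dCD.

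Counted over all 358 regions, the floxed line had 25 regions past 2-fold higher in formative cells (all regions 9.33%) and 14 lower (all regions 10.6%), with 17 of the 25 and 1 of the 14 at ligands. The 3 ligand regions with the largest positive difference were 4.3 kb downstream of Wnt2 (4.93 to 28.6 reads), 21.9 kb downstream of Wnt7a (7.19 to 28.1) and 10.3 kb upstream of Wnt6 (14.8 to 57.3). A group of 3 small Sp5 regions led the effectors, from 5.40 to 34.9, 7.84 to 41.1 and 7.58 to 23.9 reads, while Tcf7l2 28.3 kb upstream went from 95.5 to 35.0. In DKO 1 member region was past 2-fold higher (all regions 1.2%) and 5 lower (all regions 1.25%), and in dCD 3 were higher (all regions 1.37%) and 2 lower (all regions 2.47%). All 6 of the DKO regions held under 32 reads in both states, and Wnt5b 41.5 kb upstream, from 12.2 to 28.7 reads, was the only higher one.

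In formative cells, the loci furthest below the floxed line in DKO were Wnt5a, Sp5, Fzd7, Wnt6, Fzd8 and Fzd3. Of 358 member regions, 43 were past 2-fold lower (12.0%, all regions 16.7%) and 10 higher (2.79%, all regions 6.47%). Over all regions within 50 kb of a start the shares were 12.4% and 6.73%, so the lower share of the members was near that of regions at like distance. With each group centred on its median, which moved every difference by 0.21, the shares were 8.38% lower and 5.31% higher, beside 11.8% and 11.2% of all regions. At the 44 regions that gained in wild type the median was −0.64 (−0.43 centred), against −1.08 at all gained regions, and 7 of the 44 were above 0 (15.9%, all gained regions 7.31%). As deposited, locus means past 1.5-fold were all lower: Wnt5a (−1.21), Sp5 (−1.03), Fzd7 (−0.99), Wnt6 (−0.83), Fzd8 (−0.78) and Fzd3 (−0.69), with 14.2% of all loci lower and 13.6% higher. Centred, 4 were lower (Wnt5a, Wnt6, Fzd7 and Sp5) and 1 higher (Fzd4, 0.65). Of all loci 8.75% were then lower and 23.8% higher. Within 10 kb the means as deposited were −0.14 at Fzd7, −0.10 at Fzd8, −0.25 at Sp5 and 0.040 at Fzd3. Wnt5a and Fzd3 are on chromosome 14, where the median of all regions was itself −0.39, and relative to it the Fzd3 mean was −0.29, below 1.5-fold.

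The ligand regions furthest below the floxed line in formative DKO cells were at Wnt5a, 33.8 kb upstream (55.5 against 10.8 reads, −2.32) and 33.6 kb downstream (20.6 against 3.97, −2.30), and at Wnt7a 38.4 kb downstream (17.6 against 4.25, −2.00). Among receptors they were Fzd7 39.5 kb upstream (13.8 against 2.84, −2.18), the Fzd1 region of the largest gain (64.2 against 14.2, −2.14) and Fzd8 15.1 kb upstream (82.1 against 18.4, −2.09). Among effectors Sp5 14.2 kb upstream (34.9 against 7.01, −2.30) and Tcf7l2 8.4 kb upstream (118.5 against 33.1, −1.81) led. Tcf7l2 also held the largest differences in the other direction: 19.8 kb downstream the reads were 28.3 in the floxed line and 107.9 in DKO, a difference of 1.87, and 25.5 and 36.2 kb downstream they were 19.4 and 47.0, and 29.3 and 65.9. One locus therefore had both strongly higher and strongly lower regions, and its mean difference was 0.014.

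At Fzd7, a receptor expressed in pluripotent cells, 7 of 9 regions lay upstream and each of those 7 was lower in formative DKO. The region 45.7 kb upstream held 308.9 reads in formative wild-type, 270.1 in floxed, 105.1 in DKO and 119.7 in dCD cells, and the one 24.2 kb upstream held 223.3, 197.6, 87.4 and 85.6. These wide Fzd7 regions, named after their values were seen, did not pass the FDR in wild type, while 2 of the 9 Fzd7 regions passed it as gains. At the wide regions the lower mutant level was thus not tied to a called gain.

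In naive cells, 29 member regions were past 2-fold lower in DKO than in the floxed line (8.10%, all regions 15.9%) and 8 higher (2.23%, all regions 4.36%). With each group centred on its median, which moved every difference by 0.21, the order turned to 3.63% lower and 5.31% higher, while all regions had 10.6% lower and 8.06% higher. The Wnt5a locus mean was −0.65, and −0.18 relative to the median of chromosome 14 (−0.48), while Fzd1 (0.63) and Fzd6 (0.60) were higher, beside 16.3% of all loci lower and 7.58% higher. The furthest below were Fzd8 16.9 and 15.1 kb upstream (24.1 against 4.77 and 67.3 against 17.2 reads), Sp5 23.0 kb upstream (30.2 against 8.56), Wnt3a 5.2 kb upstream (24.0 against 7.01) and Tcf7l1 29.7 kb upstream (81.1 against 25.9). At the 22 regions lost in wild type the median was −0.46 (−0.25 centred), and 18 of the 22 were below 0 (81.8%). Lost regions of the whole table had a median of −0.62 and 81.4% below 0, and of every region 59.3% were below 0.

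In formative dCD cells 7 loci were past 1.5-fold lower than in wild type. Of these Wnt5a, Fzd7, Fzd8 and Sp5 were also among the 6 low loci of DKO, while Wnt2, Axin2 and Lef1 were not, and Wnt6 (−0.40) and Fzd3 (−0.21) fell short in dCD. The shared 4 are 66.7% of the DKO loci and 57.1% of the dCD loci, beside 72.4% and 60.2% over all loci low in each. Compared with wild type, 52 of 358 member regions were past 2-fold lower (14.5%, all regions 20.1%) and 2 higher (0.559%, all regions 2.59%). Over all regions within 50 kb of a start the lower share was 14.4%. With each group centred on its median, which moved every difference by 0.40, the shares turned to 5.31% lower and 8.10% higher, and those of all regions to 9.69% and 10.8%. The median over the 358 regions was −0.25 as deposited and 0.15 centred, against −0.29 and 0.11 over all regions. Locus means past 1.5-fold were Fzd7 (−0.98), Wnt5a (−0.95), Wnt2 (−0.91), Fzd8 (−0.77), Sp5 (−0.76), Axin2 (−0.75) and Lef1 (−0.60). Centred, each of these 7 was below 1.5-fold, from −0.58 at Fzd7 to −0.20 at Lef1, and none changed sign, while 4 other loci were then past 1.5-fold higher: Dkk1 (0.67), Ctnnb1 (0.67), Wnt10b (0.64) and Wnt9b (0.60). The locus calls of this comparison thus went from 7 lower and 0 higher to 0 lower and 4 higher, and over all loci from 17.0% lower and 7.97% higher to 6.74% and 26.4%. Within 10 kb the Fzd8 mean was 0.084. In this comparison the 44 gained regions share their formative wild-type column with the call itself, so their median of −0.54 is a description.

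The regions furthest below wild type in formative dCD cells were Fzd1 15.0 kb downstream (39.8 against 7.33 reads, −2.37), Wnt5a 35.9 kb upstream (73.6 against 15.5, −2.16), Wnt2 49.8 kb downstream (31.4 against 8.18, −1.92), Fzd8 16.9 kb upstream (21.9 against 5.83, −1.87) and Axin2 42.5 kb upstream (80.9 against 22.8, −1.75). Higher than wild type were Fzd6 15.2 kb upstream (40.4 against 101.6, 1.30) and Lrp5 12.0 kb downstream (6.36 against 13.6, 1.06). The Fzd6 region 15.2 kb upstream was also past 2-fold higher in formative DKO than in floxed cells, with 75.9 against 36.5 reads. In naive cells 19 member regions were past 2-fold lower in dCD (5.31%, all regions 13.9%) and 1 higher (all regions 1.55%), and centred on group medians the shares were 1.68% lower and 3.63% higher, beside 5.63% and 6.80% of all regions. Sp5 (−0.80) and Fzd4 (−0.60) were the locus means past 1.5-fold lower and Fzd1 (0.59) the higher one (all loci 15.2% and 4.68%), and both lower values fell short of that size once centred (−0.45 and −0.25).

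At most start sites both mutants were higher than their controls. Of the 19 member regions within 1 kb of a start, 14 were above the floxed line in formative DKO, with a median difference of 0.50, and 15 were above wild type in formative dCD, with a median of 0.55. In naive cells 18 of 19 were higher in each, with medians of 0.45 and 0.50. Of all start-site regions 76.6% and 77.4% were higher in naive DKO and dCD, with medians of 0.38 and 0.41. The floxed line was also above wild type, at 18 of 19 in naive cells (median 0.29) and at 13 of 19 in formative cells (median 0.11). Over all start-site regions the medians were 0.14 and 0.049, with 68.4% and 57.1% above 0. Large formative values were at Fzd8 (0.90 in DKO and 0.93 in dCD), Wnt7a (0.78 and 0.73), Fzd6 (0.75 and 0.73) and Fzd1 (0.71 and 0.72). The highest of the 19 was Fzd8 in DKO and a region of another gene, at 0.94, in dCD. Below 0 in both were Wnt2b (−0.52 and −0.43) and Wnt5b (−0.50 and −0.55). Start-site regions of all genes showed the same sign, with medians of 0.40 and 0.47 and 76.8% and 77.5% above 0. The 237 member regions 10 to 50 kb away had medians of −0.33 in formative DKO and −0.33 in formative dCD, which centring moved to −0.13 and 0.07. As deposited, all regions at that distance had medians of −0.15 and −0.31, with 42.1% and 32.2% above 0. Of the 237, 71 and 61 were above 0. The start-site medians stayed above 0 under every scaling.

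The Sp5 locus showed both signs in formative cells. Its start-site region held 231.1 and 299.7 reads in naive and formative wild-type cells, 251.2 and 329.6 in the floxed line, 373.9 and 422.3 in DKO and 320.8 and 400.0 in dCD. The other 9 Sp5 regions were each lower in formative DKO than in floxed cells and in formative dCD than in wild-type cells, and most of them were thin. In naive cells this was mixed: 5 of the 10 Sp5 regions were above the floxed line in DKO, among them the start and the region 16.1 kb downstream (18.3 against 7.84 reads), and 2 of 10 were above wild type in dCD.

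**Figure D4:**
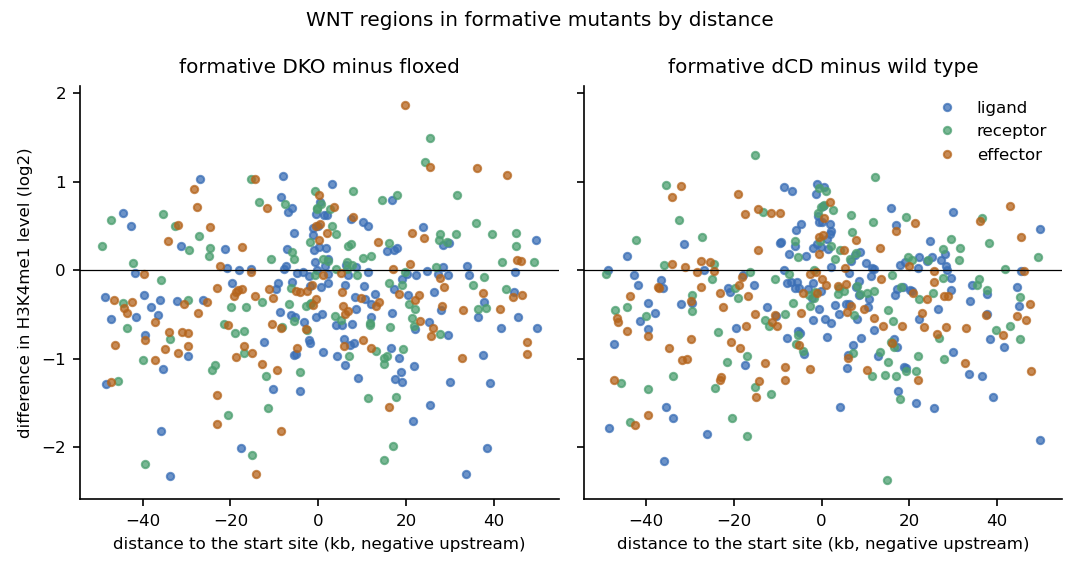
Difference in level (log2) of formative DKO from floxed cells and of formative dCD from wild-type cells at the 358 member regions, by distance from the start site (kb, negative upstream), coloured by role. Points within 1 kb lie mostly above 0, with medians of 0.50 and 0.55, and points beyond 10 kb mostly below. Of all regions 10 to 50 kb from a start, 42.1% and 32.2% were above 0.

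The floxed line differed less from wild type. In naive cells 14 member regions were past 2-fold lower (3.91%, all regions 4.38%) and 0 higher (all regions 0.864%), and in formative cells 4 were lower (1.12%, all regions 3.83%) and 0 higher (all regions 0.526%). The lowest were the Wnt2 region 4.3 kb downstream (16.0 against 4.93 reads) and Wnt4 48.6 kb upstream (34.7 against 13.0) in naive cells. Fzd4 was the only member locus past 1.5-fold, at −0.76 in naive cells over 3 regions. For that naive comparison, 5.35% of all loci were past this size lower and 1.66% higher. The formative comparison had 5.28% of all loci lower and 0.692% higher, and no member locus. The Fzd4 value thus does not set the members apart. Levels at most WNT regions in the floxed line were thus near those of wild type, by columns of 1 pooled value each.

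The table also carries folds for H3K27ac, a mark of active enhancers, and for RNA of the nearest gene, from samples outside this series and without errors. At the 44 gained member regions the H3K27ac log2 fold in wild type, from the authors' deposited table, was above 0 at 37 with a median of 1.2, beside 81.0% and 1.32 at all gained regions. It was 3.59 at Fzd1 15.0 kb downstream, 2.73 at Wnt5a 33.8 kb upstream and 1.66 at Lef1 32.7 kb downstream, and in the authors' deposited table the same fold in DKO was −3.72, −0.75 and 0.69. The share at the member regions was thus close to that of gained regions at large. At the lost regions it was below 0 at 11 of 22 by the authors' deposited table, beside 60.5% of all lost regions, with medians of 0.066 and −0.32. At the lost Fzd10 region the authors' deposited table gave 2.43.

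RNA folds were listed for 27 of the 38 genes. From naive to formative wild-type cells, the authors' deposited table gave 10 genes past 2-fold up and 1 down, beside 19.1% and 9.76% of 10876 genes. The log2 folds in that authors' deposited table were 4.94 for Wnt3, 3.18 for Fzd2, 3.05 for Wnt9a, 2.86 for Fzd6, 2.43 for Fzd3, 2.33 for Wnt4, 2.14 for Fzd1, 2.08 for Wnt5a, 1.72 for Fzd7 and 1.07 for Tcf7, with −1.92 for Fzd5. Each of these 10 genes but Fzd3 (90.0%) also had at least 1 region that gained H3K4me1, as did 6 of the other 17 (35.3%), and Fzd5 had lost ones only. Over all genes with an RNA fold in the authors' deposited table the shares were 51.3% of those past 2-fold up and 18.0% of the others. In DKO the authors' deposited table gave transition folds of 2.84 for Wnt5a, 4.09 for Fzd1 and 3.99 for Fzd7, beside H3K4me1 locus means in the same transition of −0.0015, 0.090 and −0.27. For Wnt3 the fold in DKO was −1.21 and for Wnt4 0.04, and in naive cells the authors' deposited table put DKO above wild type by 4.11 for Wnt3, 2.27 for Wnt4 and 5.04 for Dkk1. The H3K4me1 locus means in the DKO transition were 0.075 at Wnt3 and 0.22 at Wnt4. The naive RNA folds are against wild type, while H3K4me1 in DKO was compared with the floxed line. In naive cells that H3K4me1 difference was −0.12 at Wnt3, 0.26 at Wnt4 and −0.54 at Dkk1. By the authors' deposited RNA folds, 11 of the 27 genes were past 2-fold up in the DKO transition and 8 down. The lowest was Dkk1 at −4.24. Over all genes the shares were 20.0% and 5.25%. In formative cells DKO was above wild type by 1.57 for Wnt5a, 1.61 for Fzd1 and 0.53 for Fzd7, while Wnt3 had −2.04. Past 2-fold, 2 of the 27 were higher there and 6 lower, beside 6.99% and 5.65% of all genes. In the DKO transition the RNA folds of Wnt5a, Fzd1, Fzd7 and Wnt3 stood beside small H3K4me1 differences, and a link was not tested.

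Another 54 genes of the pathway, listed by function, had 463 regions at 52 genes, of which 45 gained (9.72%, all regions 9.82%) and 32 lost the mark in wild type (6.91%, all regions 10.5%). By list, 18 of 126 regions of co-receptor and R-spondin genes gained and 3 lost, 13 of 102 of secreted antagonists gained and 6 lost, and 3 of 17 of secretion genes gained and 1 lost. Of the cytoplasmic genes 4 of 131 regions gained (3.05%) and 17 lost (13.0%), and of the nuclear ones 7 of 87 gained and 5 lost. The largest locus means were at Amer1 (0.99), a scaffold of the destruction complex, and Wls (0.86), the carrier that takes WNT proteins to the cell surface. Amer1 lies on the X chromosome, where the median of all regions was 0.33, and relative to it the Amer1 mean was 0.65, against 0.80 for Wls relative to its own chromosome. The lowest means were at the casein kinase genes Csnk1d (−0.79) and Csnk1a1 (−0.73). For DKO minus floxed, the Wls mean was −0.96 in naive and −1.42 in formative cells. Porcn, the enzyme that lipid-modifies WNT proteins, had −0.96 and −0.79, but it too lies on the X chromosome, where the medians of all regions were −0.46 and −0.58.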

How the data were processed

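H3K4me1 CUT&RUN was measured in 16 libraries of 8 groups, and the authors deposited 1 table for the series. Per the submitters' processing notes, Trim Galore, Bowtie2, SEACR, DiffBind and deepTools were used with mm10, with versions and steps not given in the sources used here. Per the file headers and values, the deposited levels are log2 values of 1 plus reads over squared width, with an offset of 22.2 fitted in wild type and assumed for the other groups, from which normalized reads were worked back. CKO columns were read as floxed, from the track names in that line's sample descriptions. The table also gives, per the file headers, the authors' log2 fold, p-value and FDR for the wild-type transition, region widths and distances in bp, and log2 folds for H3K27ac and RNA. The direction of these folds was read from the state markers. The wild-type RNA log2 fold was below 0 at 8 of 8 naive-state genes and above 0 at 6 of 6 formative-state genes. For H3K27ac the markers were less uniform, with 104 of 148 naive-state regions below 0 and 65 of 83 formative-state regions above 0. An identity between the columns then set the direction of the DKO folds. Another 15 columns of per-sample values were not used, and 2 regions without levels were left out.

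Differences were taken with Python 3.11.15, pandas 2.3.3 and numpy 2.4.6 and tested on simulated data. Since groups are pooled, no fit over replicates was run in place of the planned one. Regions past 2-fold and loci past 1.5-fold are described beside all 186824 regions with levels, with the authors' FDR at 0.05 as the only test. Alternatives were centring on group or chromosome medians, quantile normalization, a 10 kb limit, a minimum of 32 normalized reads, an FDR of 0.01 and, chosen after seeing the data, log2 of reads plus 1. The rule for named regions took the 3 with the lowest FDR per direction and role, the 3 largest past 2-fold in each other comparison and each locus past 1.5-fold, of which the larger are given. The members, lists and tests were chosen with earlier results of these data known.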

Additional observations from a re-analysis of the deposited data

How the results depend on the processing

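Counts are single pooled values per group, so their error between cultures is unknown. No paired analysis was possible because the level columns pool both libraries of a group and carry no replicate number, so leaving out 1 replicate was not run either. Of 184 summary values under the alternatives, 126 stayed within their counting interval or 1.5 times the count. That interval is binomial and takes regions as independent, while regions of 1 gene are not replicates. It served as a yardstick and is not an error range. Of 192 values of single loci, 138 kept their side of 1.5-fold, 52 fell short of it and 2 changed sign, both within 10 kb: Fzd3 in formative DKO (0.040) and Fzd8 in formative dCD (0.084). The cause was not tested for any change below. The scale of log2 reads plus 1 moved none of the summary values.

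With each group centred on its median, the shares of member regions past 2-fold were 5.31% higher and 3.63% lower in naive DKO, 5.31% and 8.38% in formative DKO, 3.63% and 1.68% in naive dCD and 8.10% and 5.31% in formative dCD. Naive floxed cells had 1.40% lower (all regions 2.87%) and formative floxed cells 1.12% higher (all regions 1.05%). Loci past 1.5-fold were 4 in formative dCD, all higher and none of them among the 7 lower ones as deposited, 2 in naive floxed and 1 in formative floxed cells. Of all loci, 26.4% were higher and 6.74% lower in formative dCD. In naive floxed cells these shares were 3.79% and 3.01%, and in formative floxed cells 1.66% and 3.12%. Quantile normalization gave 5.03% higher and 4.19% lower in naive DKO (all regions 8.17% and 10.4%) and 8.10% lower in formative DKO (all regions 11.5%). Naive dCD had 3.35% and 3.07% (all regions 5.94% and 7.52%), and formative dCD 4.47% and 5.31% (all regions 7.84% and 10.2%). Loci past 1.5-fold were then 11 in the floxed transition, all higher (all loci 11.9% higher and 13.1% lower). Naive DKO had 5, all higher (all loci 16.5% and 8.18%). There were 3 in formative dCD (all loci 21.1% and 7.37%), 3 in naive floxed (3.90% and 4.66%) and 1 in formative floxed cells (1.39% and 3.23%). Centred on chromosome medians, naive DKO had 3.91% lower (all regions 11.0%) and naive dCD 2.23% higher and 2.51% lower (all regions 5.15% and 6.63%). Formative dCD had 4.75% higher and 6.98% lower (all regions 7.67% and 11.9%). It had 2 loci, Wnt5a and Fzd7, both lower, beside 19.0% of all loci higher and 8.17% lower.

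Within 10 kb, the gained share was 17.4% and the lost share 3.31% by the authors' FDR. Past 2-fold it was 3.31% lower in the wild-type and 1.65% lower in the floxed transition, 0% in either direction in the DKO transition and 0% lower in that of dCD. It was 0.826% higher and 3.31% lower in naive DKO, 0.826% and 4.96% in formative DKO, and 0% and 4.13% in formative dCD. Loci numbered 1 in the DKO and 4 in the dCD transition, 5 in naive DKO, 3 in formative dCD and 2 in naive floxed cells. Over regions of at least 32 reads the DKO transition had 0% in both directions, naive DKO 0.389% higher, naive floxed 1.95% lower and formative floxed 0% lower, with 3 loci in the dCD transition, 1 in naive dCD, 2 in naive floxed and 1 in formative floxed cells. No shares over all regions or loci were taken under the 32-read limit. Within 10 kb none were taken for loci, FDR calls or higher regions. For lower regions, shares over all regions were taken within 1 kb and at 1 to 10 kb. In the wild-type transition they were 2.28% and 9.45%, beside 0 of 19 and 4 of 102 member regions. In formative DKO they were 3.25% and 10.5%, beside 0 of 19 and 6 of 102. In formative dCD they were 3.64% and 10.9%, beside 0 of 19 and 5 of 102. The values without such a share do not set the members apart.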
